A study of Rattus norvegicus with 9 samples.

Results

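Proteasome subunits and regulators were followed as RNA in RBL-2H3, a rat basophilic leukemia line that serves as a model of mast cells. The genes were all those with values whose symbol begins with Psma, Psmb, Psmc, Psmd, Psme, Psmf or Psmg followed by a number, and 49 of the 18006 genes with values met this rule. They comprised 7 alpha ring genes, 7 constitutive beta ring genes, 3 immunoproteasome genes, 2 tissue-restricted core genes, 6 cap ATPases, 14 cap non-ATPases, 4 activators, 1 inhibitor, 4 assembly chaperones and Psmc3ip. The last of these shares the prefix only, since its product is a cofactor of meiotic recombination and no subunit.

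RNA from 9 samples was sequenced, 3 in each of the groups Ctrl, DNP (labelled IgE/DNP) and PF. DNP cells were sensitized for 12 h with 50 ng/ml of an IgE directed at dinitrophenyl (DNP) and then received 100 ng/ml of DNP-HSA, an antigen that cross-links this IgE, for 4 h. PF cells were sensitized alike and then, by the labels, had 1 h with PF before the same dose of antigen. Neither the labels nor the study's text give the identity or dose of PF, and 1 label field sets the antigen time of PF replicates 1, 2 and 3 at 4, 5 and 6 h where another gives 4 h. Ctrl is called untreated in 1 field, while a field shared by all samples describes sensitization and 4 h of antigen, so it is not settled whether Ctrl cells received IgE. The comparison of DNP with Ctrl addresses activation through IgE and antigen, and the comparison of PF with DNP addresses what PF pretreatment adds. The 3 comparisons share samples: DNP takes part in the first and the second, and Ctrl and PF each in 1 of these and in PF against Ctrl. The labels do not say that replicates were separate cultures, so p-values measure only the spread between these samples, which may be technical.

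The proteasome is the barrel-shaped protease that degrades most ubiquitin-tagged proteins. Its core stacks rings of alpha subunits, which gate entry, on rings of beta subunits, which hold the proteolytic sites, while a cap of ATPases and non-ATPases binds, unfolds and feeds in the substrate. In cells of the blood lineages and after interferon the catalytic subunits Psmb5, Psmb6 and Psmb7 can give way to Psmb8, Psmb9 and Psmb10, which make the immunoproteasome and favour peptides suited to antigen presentation.

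The headings of the deposited values name no unit, and the values were read as FPKM, a fragment count scaled by transcript length and by the mapped fragments of the sample. FPKM summed to 580702, 591539 and 584498 in Ctrl, 578291, 573023 and 582577 in DNP, and 616992, 630069 and 610206 in PF. Each PF sum lay above every sum of the other groups. Depth in reads is unknown. Relative depth, read from the low values of 8 genes that were whole multiples of a smallest step within a tolerance of 0.03, ran from 0.984 to 1.02 of the mean. Only genes whose steps agreed between samples within that tolerance were kept. The narrow range was thus set by the choice of genes and cannot show that depths were alike.

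Of the 10 mast cell and basophil markers 9 had values (Tpsab1 had none), with none at 0. Their summed level was 2789, 2777 and 2757 FPKM in Ctrl, 2611, 2579 and 2592 in DNP and 2741, 2759 and 2715 in PF, and Fcer1g, the gamma chain of the IgE receptor, was the most abundant in each sample. The mast cell list held 2 higher and 4 lower genes in DNP against Ctrl, 3 and 3 in PF against DNP, and 4 and 4 in PF against Ctrl by limma as deposited. With equal sums the counts were 3 and 4, 1 and 5, and 2 and 4, and by median ratios 2 and 4, 4 and 2, and 4 and 4. Beside these, the shares of all genes as deposited were 14.7% and 14.4%, 18.1% and 30.7%, and 23.1% and 34.6%. With equal sums they were 16.0% and 12.3%, 8.42% and 41.7%, and 15.2% and 41.7%. By median ratios they were 15.0% and 14.1%, 26.7% and 25.2%, and 30.4% and 29.1%. The label fields also name peripheral blood as tissue and blood corpuscle as cell type, yet markers of other blood cells were low. The 5 macrophage and monocyte markers summed to between 1.52 and 2.62 FPKM, with Cd68 highest except in PF replicate 1, where Cd14 was, and the macrophage marker Adgre1 was at 0 in DNP replicate 2 and PF replicate 1. Among these markers Cd68 alone could be tested, and it was lower in PF than in Ctrl (log2 fold change -0.41 ± 0.14 (SE), limma adjusted p 0.0358), though not after scaling by median ratios. The 3 T cell markers summed to between 6.92 and 10.2 FPKM, nearly all from Cd3e, while Cd3d was at 0 in each sample except Ctrl replicate 2. Cd3e was higher in PF than in Ctrl (log2 fold change 0.25 ± 0.09 (SE), limma adjusted p 0.0459), though not after scaling to equal sums. The part of Cd68 and Cd3e in the other results was not tested. The 2 B cell markers with values summed to at most 1.15 FPKM, the 3 epithelial markers to at most 1.15 and the 3 fibroblast markers to at most 0.12, and none of these reached the filter for testing.

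Genes that respond to mast cell activation marked the groups. Egr1, an immediate early transcription factor, stood at 3.59, 4.00 and 3.35 FPKM in Ctrl, 158, 176 and 174 in DNP and 219, 221 and 238 in PF. The antigen groups lay far above Ctrl and PF lay above DNP. Il4, a cytokine of activated mast cells, stood at 2.47, 2.26 and 2.27 FPKM in Ctrl, 11.8, 12.7 and 12.5 in DNP and 2.55, 3.71 and 4.22 in PF. Here DNP was highest and PF lay between, without overlap. Of the 5 stimulation genes (Egr1, Fosb, Il4, Ccl2 and Egr3), 5 were higher in DNP than in Ctrl, and 2 were higher and 3 lower in PF than in DNP under each of 3 scalings. In PF against Ctrl, 5 were higher, with 4 after scaling to equal sums. Of the 5 reference genes (Gapdh, Actb, Hprt1, Tbp and B2m), 1 was lower in DNP than in Ctrl, 3 were higher in PF than in DNP and 2 were higher in PF than in Ctrl. With equal sums the PF counts were 2 higher and 1 lower against DNP and 1 higher and 2 lower against Ctrl. For both lists, the shares of all genes higher and lower as deposited were 14.7% and 14.4% in DNP against Ctrl. They were 18.1% and 30.7% in PF against DNP, and 23.1% and 34.6% in PF against Ctrl. With equal sums these shares were 16.0% and 12.3%, 8.42% and 41.7%, and 15.2% and 41.7%. By median ratios they were 15.0% and 14.1%, 26.7% and 25.2%, and 30.4% and 29.1%.

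Groups were compared with limma on log2(FPKM + 1), a scale that understates fold changes of low genes, and a gene was called higher or lower at a Benjamini-Hochberg adjusted p of at most 0.05 over all genes tested. A gene was tested where 3 or more of the 6 samples compared reached 1 FPKM, and each of the 49 genes was tested in each comparison. Since PF sums were higher, the tests were repeated after scaling by median ratios and after scaling to equal sums. The median log2 fold change of all genes tested in PF against DNP was -0.04 as deposited, 0.02 by median ratios and -0.13 with equal sums. For PF against Ctrl it was -0.05, 0.01 and -0.12. In DNP against Ctrl it was -0.01, -0.0037 and 0.0092. The share of higher genes among those called was 37.1% in PF against DNP, 51.5% by median ratios and 16.8% with equal sums, and in PF against Ctrl it was 40.0%, 51.1% and 26.7%. A call described below as holding under 3 scalings passed in the same direction in all of them. Counts at an unadjusted limma p under 0.05 have no share of all genes beside them and cannot be set against a background. Genes were named by a rule given with the processing, and those named beyond it were named after their values were seen.

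Levels of the proteasome genes spanned a wide range per length. The highest mean over the 9 samples was 386 FPKM for Psmb4, a structural beta subunit, followed by 280.3 for Psmb3 and 279 for Psmb8, a subunit of the immunoproteasome. The lowest were 2.28 for Psmb11 and 2.03 for Psma8. Class medians of these means were 209 FPKM for the constitutive beta ring, 198 for the alpha ring, 156 for the cap ATPases, 102 for the cap non-ATPases, 57.3 for the activators, 51.1 for the immunoproteasome and 26.2 for the assembly chaperones. Without Psmc3ip the 48 genes summed to 5669 ± 103 FPKM (SD, n = 3) in Ctrl, 5777 ± 92.7 in DNP and 6233 ± 103 in PF. As a share of each sample's FPKM sum they took 0.956, 0.967 and 0.981% in Ctrl, 0.988, 1.0005 and 1.01% in DNP, and 0.998, 1.008 and 1.01% in PF. The summed FPKM of PF lay above both other groups, while as a share PF overlapped DNP and both lay above Ctrl. In bulk RNA such as this, fewer cells of a type and less RNA per cell cannot be told apart.

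For DNP against Ctrl, 8 of the 49 genes were higher, beside 14.7% of all 10392 genes tested, and 2 were lower, beside 14.4%. The share of proteasome genes called was thus near the background for higher genes and under it for lower ones. All 10 calls held under 3 scalings, a rule that 14.6% of all genes met as higher and 12.3% as lower. The median log2 fold change was 0.04 for the proteasome genes and -0.01 for all genes, and 31 of the 49 lay above the all-gene median. The proteasome genes' median was 0.020 without DNP replicate 3, 0.057 without DNP replicate 2, 0.064 without DNP replicate 1 and 0.065 without Ctrl replicate 3, and 28 to 33 genes lay above the all-gene median with 1 library left out. Of the 8 higher genes, 5 were called whichever library was left out: Psmc2, Psmd5, Psmd10, Psmg2 and Psmg3. The call of Psmd12 was lost without Ctrl replicate 1 or 2 or DNP replicate 2 or 3 (adjusted p 0.0508 to 0.0676), that of Psmd2 without Ctrl replicate 1 or DNP replicate 2 or 3 (adjusted p 0.0552 to 0.0797) and that of Psmf1 without DNP replicate 1 (adjusted p 0.0506). Both lower genes, Psma1 and Psmd8, were called whichever library was left out.

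In PF against DNP, 24 of the 49 genes were higher, beside 18.1% of all 10329 genes tested, and 4 were lower, beside 30.7%. By median ratios 35 were higher, beside 26.7%, and 1 was lower, beside 25.2%. With equal sums 12 were higher, beside 8.42%, and 6 were lower, beside 41.7%. The proteasome genes' median was 0.10 as deposited, 0.16 by median ratios and -0.0011 with equal sums, and relative to the all-gene median it was 0.14, 0.14 and 0.13. All genes are no match in level: Psmb6, of rank 25 among the 49 by mean FPKM, lay above 95.0% of the genes with values. The part of expression level in the shares and medians of any comparison was not tested. Under 3 scalings 12 genes were higher, beside 8.41%, and 1 was lower, beside 25.2%. These 12 were Psmb1, Psmb3, Psmb5, Psmb8, Psmb10, Psmb11, Psma8, Psmc3, Psmd3, Psmd9, Psme1 and Psme2, and each was called with any 1 library left out. The lower gene was Psmd5, which was called with any 1 library left out as well. The count of higher genes was 17 to 23 with 1 library left out, beside 14.6% to 16.8% of all genes. That of lower genes was 1 without DNP replicate 2, PF replicate 1 or PF replicate 2, and 2 without DNP replicate 3 or PF replicate 3. Of all genes, 25.8% to 29.9% were lower with 1 library left out. With PF replicate 1 alone, the only PF sample whose label fields both give 4 h of antigen, 14 genes were higher, beside 11.5% of all genes, and 2 were lower, beside 24.0%, its spread being assumed to be that of the DNP samples.

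From Ctrl to PF, 29 of the 49 genes were higher, beside 23.1% of all 10361 genes tested, and 3 were lower, beside 34.6%. By median ratios 37 were higher, beside 30.4%, and 1 was lower, beside 29.1%. With equal sums 16 were higher, beside 15.2%, and 5 were lower, beside 41.7%. The median was 0.15 as deposited, 0.21 by median ratios and 0.07 with equal sums, which relative to all genes, again not matched in level, was 0.20, 0.20 and 0.19. Under 3 scalings 16 genes were higher, beside 15.2%, and 1, Psmd5, was lower, beside 29.1%. The count of higher genes was 23 to 27 with 1 library left out, beside 19.3% to 21.9% of all genes. That of lower genes was 1 without Ctrl replicate 3, PF replicate 1 or PF replicate 2, and 2 without Ctrl replicate 2 or PF replicate 3. Of all genes, 30.7% to 33.3% were lower with 1 library left out. With PF replicate 1 alone, its spread being taken from the Ctrl samples, 15 were higher, beside 13.4% of all genes, and 1 was lower, beside 26.1%. Differences between the comparisons' effects were not tested.

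**Figure D1:**
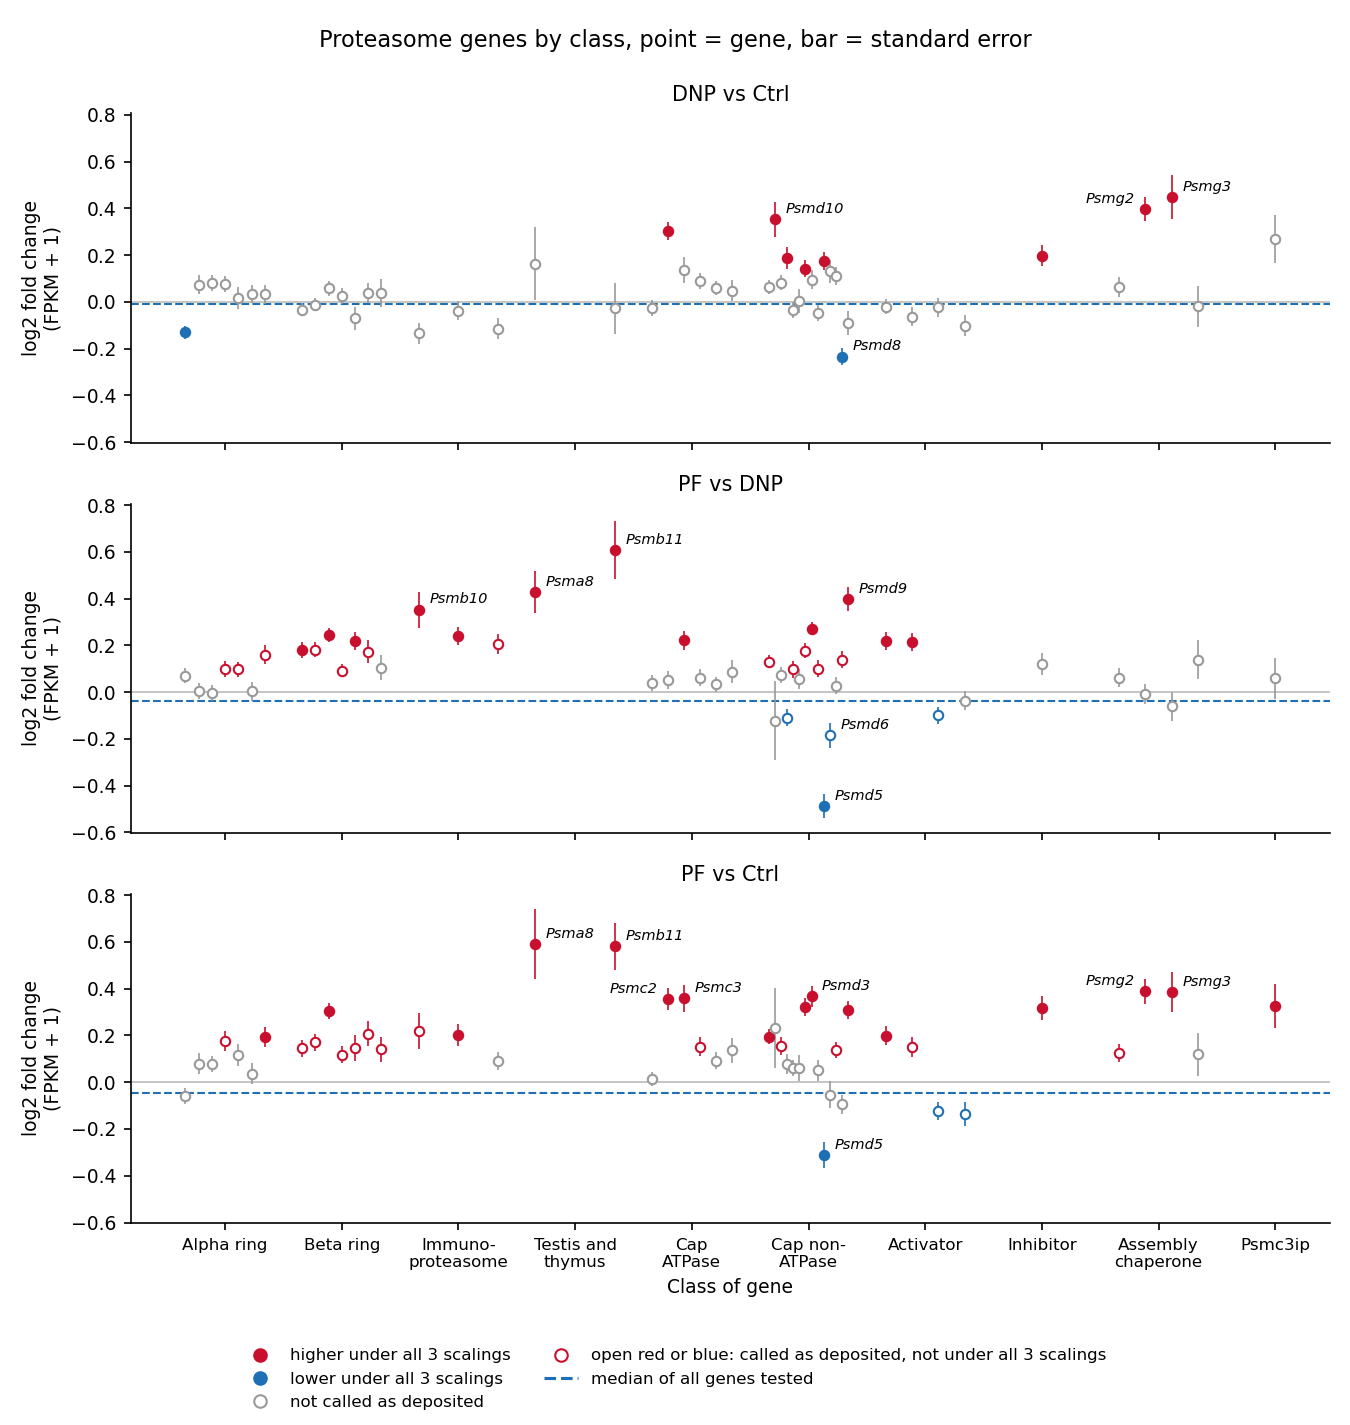
Log2 fold changes of the 49 genes (FPKM + 1) in DNP vs Ctrl, PF vs DNP and PF vs Ctrl by class, 1 point a gene, with SE bars, filled where the call held under 3 scalings, and a dashed line at the all-gene median. As deposited, 24 genes were called higher and 4 lower in PF vs DNP, against 12 and 6 with equal sums and 35 and 1 by median ratios. The shares of all genes were 18.1% and 30.7%, 8.42% and 41.7%, and 26.7% and 25.2%.

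Alpha ring genes form the gate of the core, and their 7 means ran from 83.4 FPKM for Psma3 to 278 for Psma1. Psma1 stood at 291, 286 and 293 FPKM in Ctrl, 265, 263 and 267 in DNP and 269.9, 280.0 and 285 in PF. The groups did not overlap, with DNP lowest, PF between and Ctrl highest. Psma1 fell in DNP against Ctrl (log2 fold change -0.13 ± 0.03 (SE), limma adjusted p 0.0107), under 3 scalings and with any 1 library left out. It was the only alpha ring gene called in that comparison, beside 14.7% of all genes higher and 14.4% lower. An unadjusted p under 0.05, a cut-off without a background here, was reached by 2 of the 7. The highest alpha ring fold change there was that of Psma3, 0.08 with adjusted p 0.0996. Psma7 stood at 205, 217 and 214 FPKM in Ctrl, 208, 217 and 227 in DNP and 238, 254 and 237 in PF. Each PF sample lay above each sample of the other groups, while Ctrl and DNP overlapped. Psma7 rose in PF against DNP as deposited and by median ratios (log2 fold change 0.16 ± 0.04 (SE), limma adjusted p 0.0128) but was not called with equal sums (0.06 with adjusted p 0.201), and its call was lost without DNP replicate 1 (adjusted p 0.0511). It rose in PF against Ctrl under 3 scalings (log2 fold change 0.19 ± 0.04 (SE), limma adjusted p 0.00414). Psma4 and Psma5, the other alpha ring genes called in PF against DNP, had log2 fold changes of 0.10 and 0.10 as deposited and of 0.0017 and -0.0011 with equal sums. The Psma4 call was lost without DNP replicate 1, 2 or 3 or PF replicate 1 or 3 (adjusted p 0.0709 to 0.113) and the Psma5 call without DNP replicate 1 or 2 or PF replicate 1 or 2 (adjusted p 0.0548 to 0.116). With equal sums Psma2 and Psma3 were instead called lower in PF than in DNP, and the calls of Psma4, Psma5 and Psma7 were lost. Psma4 was also higher in PF than in Ctrl as deposited (log2 fold change 0.18 ± 0.04 (SE), limma adjusted p 0.00704), but not with equal sums (0.10 with adjusted p 0.123). Psma5 passed there by median ratios and without Ctrl replicate 3 (adjusted p 0.00876). In PF against Ctrl the lowest alpha ring value was that of Psma1, -0.06 with adjusted p 0.176, which was called lower with equal sums.

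The constitutive beta ring holds the catalytic subunits Psmb5, Psmb6 and Psmb7 and the structural subunits Psmb1 to Psmb4. Psmb5 (gene 29425), which carries the chymotrypsin-like site, stood at 78.3, 81.6 and 71.2 FPKM in Ctrl, 72.2, 72.6 and 74.7 in DNP and 84.5, 88.9 and 82.6 in PF. PF lay above the other groups, which overlapped. Psmb6 (gene 29666), the caspase-like subunit, stood at 96.7, 94.6 and 102 FPKM in Ctrl, 96.3, 101 and 104 in DNP and 109, 122 and 109.9 in PF. Again each PF sample was above the rest. Psmb7 (gene 85492), the trypsin-like subunit, stood at 187, 212 and 202 FPKM in Ctrl, 198, 197 and 224 in DNP and 211, 229 and 224 in PF. Its groups overlapped, DNP replicate 3 being as high as PF. Psmb3, a structural subunit, stood at 252, 264 and 253 FPKM in Ctrl, 269.8, 261 and 271 in DNP and 314, 318 and 319 in PF. PF lay clear of both other groups.

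From Ctrl to DNP, none of the 7 constitutive beta ring genes was called by limma, and 0 had an unadjusted p under 0.05. Their log2 fold changes ran from -0.07 with adjusted p 0.328 for Psmb5 to 0.06 with adjusted p 0.224 for Psmb3, with Psmb6 at 0.04 and Psmb7 at 0.04. Psmb5 passed there without Ctrl replicate 3 (adjusted p 0.0475). For PF against DNP, 6 of the 7 were higher as deposited, 7 by median ratios and 3 (Psmb1, Psmb3 and Psmb5) with equal sums. The shares of all genes higher were 18.1%, 26.7% and 8.42% in the same order. Psmb3 rose most (log2 fold change 0.24 ± 0.03 (SE), limma adjusted p 1.95e-04), and Psmb5 followed (log2 fold change 0.22 ± 0.04 (SE), limma adjusted p 0.00131), both under 3 scalings. Psmb6 rose as deposited (log2 fold change 0.17 ± 0.05 (SE), limma adjusted p 0.0182) but not with equal sums (0.07 with adjusted p 0.198), and its call was lost without DNP replicate 1 (adjusted p 0.0678). Psmb7 was not called (log2 fold change 0.10 ± 0.05 (SE), limma adjusted p 0.142) but passed by median ratios and without DNP replicate 3 (adjusted p 0.0164). Psmb4 had the smallest value, 0.09 with adjusted p 0.0289, which was -0.0066 with equal sums, and its call was lost without DNP replicate 1, 2 or 3 or PF replicate 1 or 2 (adjusted p 0.0556 to 0.1001). Psmb1 and Psmb2 rose by 0.18 and 0.18, Psmb2 not with equal sums.

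For PF against Ctrl, 7 of the 7 constitutive beta ring genes were higher as deposited and by median ratios, and only Psmb3 with equal sums. The shares of all genes higher were 23.1%, 30.4% and 15.2% in the same order. Psmb3 rose by 0.30 ± 0.03 (SE) (limma adjusted p 1.22e-04) and Psmb6 by 0.21 ± 0.05 (SE) (adjusted p 0.00901). Psmb5 had 0.15 with adjusted p 0.0474, and its call was lost without Ctrl replicate 1 or 3 or PF replicate 1, 2 or 3 (adjusted p 0.0509 to 0.142). Psmb7 had 0.14 with adjusted p 0.0459 although its groups overlapped, and its call was lost without Ctrl replicate 1 or 3 or PF replicate 2 or 3 (adjusted p 0.0718 to 0.144). The lowest value, 0.12 with adjusted p 0.0253, was that of Psmb4, and its call was lost without Ctrl replicate 1 or 3 or PF replicate 1 or 2 (adjusted p 0.0650 to 0.0830).

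The labels name no interferon, and the 3 immunoproteasome genes had values well above 1 FPKM in each sample. Psmb8 (gene 24968), which takes the place of Psmb5, stood at 262, 282 and 259 FPKM in Ctrl, 269, 256 and 256 in DNP and 314, 316 and 295 in PF. Ctrl and DNP overlapped, and PF lay above both. Psmb9 (gene 24967), which takes the place of Psmb6, stood at 50.1, 51.7 and 52.1 FPKM in Ctrl, 44.9, 47.2 and 49.9 in DNP and 54.05, 55.9 and 54.2 in PF. Each DNP sample lay below each Ctrl sample and each PF sample above both. Psmb10 (gene 291983), which takes the place of Psmb7, stood at 24.0, 23.9 and 23.6 FPKM in Ctrl, 22.1, 20.5 and 22.3 in DNP and 27.8, 31.4 and 24.9 in PF. The order was the same, DNP below Ctrl and PF above, without overlap.

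In DNP against Ctrl, none of the 3 immunoproteasome genes was called by limma, and 2 had an unadjusted p under 0.05. No share of all genes at that unadjusted cut-off is given, while at the adjusted threshold 14.7% were higher and 14.4% lower. Psmb10 had -0.13 ± 0.05 (SE) (limma adjusted p 0.0579), Psmb9 -0.12 ± 0.04 (SE) (adjusted p 0.0872) and Psmb8 -0.04 ± 0.04 (SE) (adjusted p 0.524). Psmb9 passed there without DNP replicate 3 (adjusted p 0.0472). From DNP to PF, 3 of 3 rose as deposited and by median ratios, and Psmb8 and Psmb10 with equal sums as well. Beside these, 18.1%, 26.7% and 8.42% of all genes were higher. Psmb10 rose by 0.35 ± 0.08 (SE) (limma adjusted p 0.00507) and Psmb8 by 0.24 ± 0.04 (SE) (adjusted p 8.64e-04). Psmb9 rose by 0.21 ± 0.04 (SE) (adjusted p 0.00439), but with equal sums it had 0.11 with adjusted p 0.0624. From Ctrl to PF, Psmb8 rose by 0.20 ± 0.05 (SE) (limma adjusted p 0.00551) under 3 scalings. Psmb10 rose by 0.22 ± 0.08 (SE) (adjusted p 0.0349) but not with equal sums, and its call was lost without Ctrl replicate 1, 2 or 3 or PF replicate 1 or 2 (adjusted p 0.0678 to 0.0920). Psmb9 was not called there as deposited (0.09 with adjusted p 0.0670) but passed by median ratios.

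The ratio of each immunoproteasome gene to the constitutive gene it replaces does not depend on the scaling of a sample. In FPKM, Psmb8 to Psmb5 was 3.34, 3.46 and 3.64 in Ctrl, 3.73, 3.53 and 3.43 in DNP, and 3.71, 3.55 and 3.56 in PF. The 3 groups overlapped throughout. Psmb9 to Psmb6 was 0.519, 0.546 and 0.509 in Ctrl, 0.466, 0.466 and 0.481 in DNP, and 0.498, 0.460 and 0.493 in PF. Ctrl lay above both other groups, which overlapped. Psmb10 to Psmb7 was 0.128, 0.113 and 0.116 in Ctrl, 0.112, 0.104 and 0.0998 in DNP, and 0.132, 0.137 and 0.111 in PF. DNP lay below Ctrl, and PF overlapped both. A two-sided exact permutation test of the log2 ratio of FPKM + 1, whose smallest p with 3 against 3 samples is 0.1, gave 0.1 for Psmb9 to Psmb6 in DNP against Ctrl (difference -0.15) and in PF against Ctrl (-0.12). It gave an exact p of 0.1 for Psmb10 to Psmb7 in DNP against Ctrl (-0.17) and 0.2 in PF against DNP (0.25). Adjusted over the 9 tests the exact p was 0.3 for the first 3 of these and 0.45 for the last. For Psmb8 to Psmb5 the differences were 0.03, 0.02 and 0.05, with exact p from 0.3 to 0.6.

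**Figure D2:**
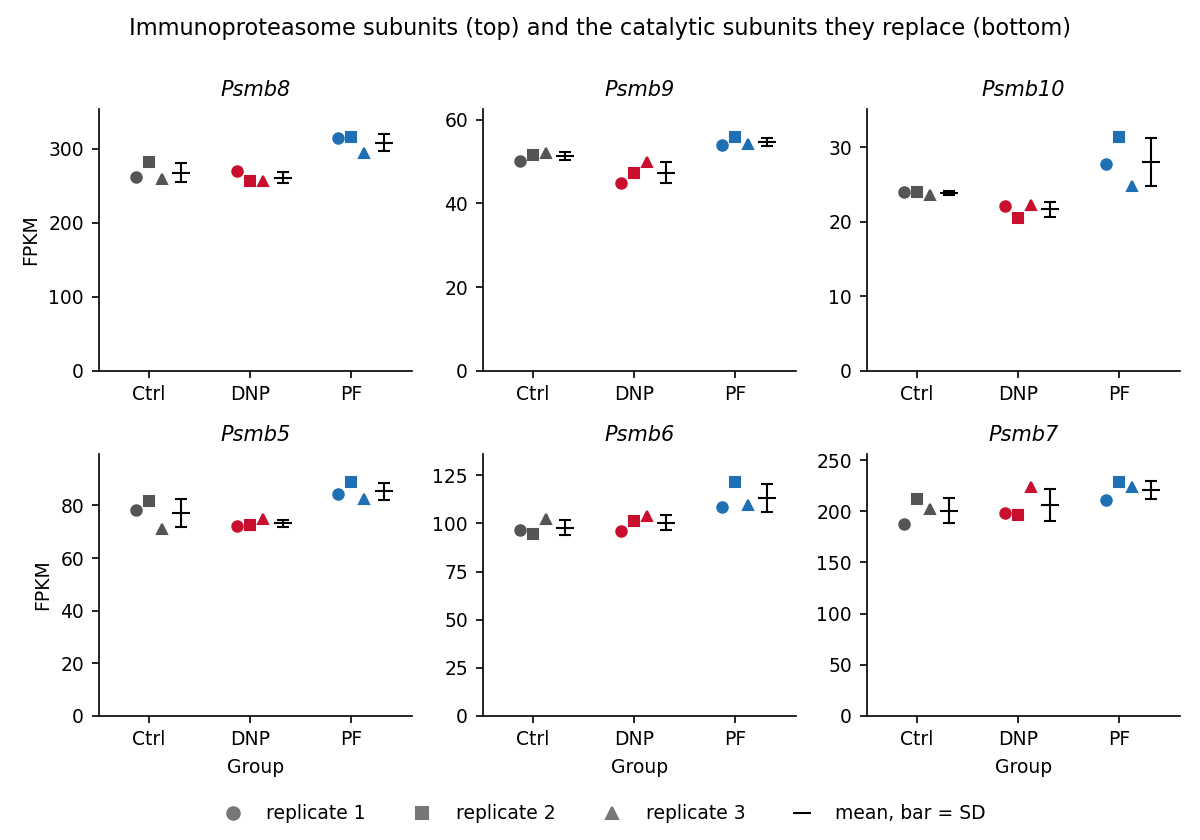
FPKM of Psmb5, Psmb6 and Psmb7 and of Psmb8, Psmb9 and Psmb10, which replace them, in the 3 samples of each group (points) with mean and SD. The PF samples of Psmb8 sit between 295 and 316, above the 256 to 282 of the other groups, while the Psmb7 groups overlap.

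Psma8, an alpha subunit of the testis, and Psmb11, a beta subunit of the thymus, were near the filter of 1 FPKM. Psma8 stood at 0.93, 1.90 and 1.76 FPKM in Ctrl, 1.86, 1.94 and 1.58 in DNP and 2.66, 2.59 and 3.02 in PF. Psmb11 stood at 1.83, 1.75 and 1.88 FPKM in Ctrl, 1.75, 1.43 and 2.17 in DNP and 2.77, 3.17 and 3.77 in PF. For both genes each PF sample lay above each sample of the other groups, which overlapped. In PF against DNP Psmb11 rose by 0.61 ± 0.12 (SE) (limma adjusted p 0.00345) and Psma8 by 0.43 ± 0.09 (SE) (adjusted p 0.00422). In PF against Ctrl the values were 0.58 with adjusted p 0.00122 for Psmb11 and 0.59 with adjusted p 0.00946 for Psma8. These calls held under 3 scalings, but both PF against DNP calls and the Psma8 call against Ctrl were lost with PF replicate 1 as the only PF sample. The log2 fold changes were then 0.45 for Psmb11 and 0.39 for Psma8 in PF against DNP and 0.56 for Psma8 in PF against Ctrl. For DNP against Ctrl, neither was called by limma, and 0 of the 2 had an unadjusted p under 0.05 (Psma8 0.16, Psmb11 -0.03). The Psma8 value ran from -0.021 without Ctrl replicate 1 to 0.27 without Ctrl replicate 2. That of Psmb11 ran from -0.13 to 0.067 with 1 library left out.

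The 6 cap ATPases form the ring that unfolds substrates and threads them into the core. Psmc2 stood at 129, 129 and 139 FPKM in Ctrl, 161, 166 and 164 in DNP and 162, 176 and 172 in PF. DNP and PF overlapped, and both lay above Ctrl. Psmc2 rose in DNP against Ctrl (log2 fold change 0.30 ± 0.04 (SE), limma adjusted p 0.00104) and in PF against Ctrl (log2 fold change 0.36 ± 0.05 (SE), limma adjusted p 2.75e-04), each under 3 scalings, and had 0.05 with adjusted p 0.275 in PF against DNP. Psmc3 stood at 127, 149 and 139 FPKM in Ctrl, 149, 148 and 159 in DNP and 177, 185 and 171 in PF. PF lay above DNP and Ctrl, which overlapped. Psmc3 rose in PF against DNP (log2 fold change 0.22 ± 0.04 (SE), limma adjusted p 0.00203) and in PF against Ctrl (log2 fold change 0.36 ± 0.06 (SE), limma adjusted p 9.28e-04), both under 3 scalings. From Ctrl to DNP, it passed without Ctrl replicate 2 (adjusted p 0.0375). In that comparison Psmc2 was the only cap ATPase called as deposited, and Psmc1 had the lowest value (-0.03 with adjusted p 0.613). For PF against DNP Psmc3 was the only one called as deposited and with equal sums, whereas by median ratios 6 of 6 were. Higher genes made up 18.1%, 8.42% and 26.7% of all genes in the same order. The lowest value there was 0.03 with adjusted p 0.413 for Psmc5. Psmc6 passed by median ratios, and as deposited in PF against DNP without PF replicate 1 (adjusted p 0.0469) and in PF against Ctrl without PF replicate 1 (adjusted p 0.0281). Psmc4 rose in PF against Ctrl as deposited (0.15 with adjusted p 0.0125) but not with equal sums, and Psmc1 had the lowest value there (0.01 with adjusted p 0.735).

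Of the 14 cap non-ATPases, 11 are subunits and 3 (Psmd5, Psmd9 and Psmd10) are chaperones that help to assemble the ATPase ring and then leave. Psmd3, a scaffold subunit of the lid, stood at 114, 126 and 122 FPKM in Ctrl, 129.9, 128 and 129 in DNP and 155, 159 and 154 in PF. PF lay above DNP, and DNP above Ctrl, with no overlap. Psmd2, a scaffold subunit of the base that receives ubiquitin shuttles, stood at 113, 119 and 120.4 FPKM in Ctrl, 127, 128 and 133 in DNP and 149.5, 144 and 147 in PF. The order was the same without overlap. Psmd1, the other large scaffold of the base, stood at 156, 157 and 159 FPKM in Ctrl, 162, 166 and 165 in DNP and 182, 179 and 179 in PF. It too was ordered Ctrl, DNP, PF without overlap.

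From DNP to PF, Psmd3 rose by 0.27 ± 0.03 (SE) (limma adjusted p 1.02e-04) under 3 scalings. Psmd2 rose by 0.18 ± 0.03 (SE) (adjusted p 0.00183) and Psmd1 by 0.13 ± 0.03 (SE) (adjusted p 0.00507), neither with equal sums. For PF against Ctrl the 3 rose under 3 scalings, Psmd3 by 0.37, Psmd2 by 0.32 and Psmd1 by 0.19, with limma adjusted p of 1.46e-04, 1.69e-04 and 9.45e-04. In DNP against Ctrl Psmd2 rose (log2 fold change 0.14 ± 0.04 (SE), limma adjusted p 0.0221), a call lost without Ctrl replicate 1 or DNP replicate 2 or 3 (adjusted p 0.0552 to 0.0797). Psmd3 had 0.10 with adjusted p 0.107 and was called there with equal sums, and Psmd1 had 0.06 with adjusted p 0.126.

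Psmd8, a lid subunit, stood at 147, 156 and 157 FPKM in Ctrl, 132, 127 and 132 in DNP and 143, 148 and 139.6 in PF. DNP lay below Ctrl and PF, which overlapped. It fell in DNP against Ctrl (log2 fold change -0.23 ± 0.04 (SE), limma adjusted p 0.00299) under 3 scalings and rose in PF against DNP (log2 fold change 0.14 ± 0.03 (SE), limma adjusted p 0.00935), though not with equal sums (0.04 with adjusted p 0.306). From Ctrl to PF, it had -0.09 with adjusted p 0.0802, passing without Ctrl replicate 1 (adjusted p 0.0383) and with equal sums. Psmd12, also of the lid, stood at 97.3, 94.7 and 105 FPKM in Ctrl, 107, 115 and 115 in DNP and 103, 105 and 105 in PF. DNP lay above both other groups. It rose in DNP against Ctrl (log2 fold change 0.19 ± 0.05 (SE), limma adjusted p 0.0189) under 3 scalings, a call lost without Ctrl replicate 1 or 2 or DNP replicate 2 or 3 (adjusted p 0.0508 to 0.0676). It fell in PF against DNP (log2 fold change -0.11 ± 0.04 (SE), limma adjusted p 0.0350) except by median ratios, a call lost without DNP replicate 2 or 3 or PF replicate 1, 2 or 3 (adjusted p 0.0531 to 0.122). In PF against Ctrl Psmd12 passed by median ratios and without Ctrl replicate 3 (adjusted p 0.0402). Psmd6, a lid subunit as well, stood at 42.5, 44.7 and 46.9 FPKM in Ctrl, 47.2, 51.3 and 48.6 in DNP and 40.5, 42.5 and 46.2 in PF. DNP lay above Ctrl and PF, which overlapped. It fell in PF against DNP (log2 fold change -0.18 ± 0.05 (SE), limma adjusted p 0.0197) except by median ratios, a call lost without DNP replicate 2 or PF replicate 1 or 2 (adjusted p 0.0525 to 0.0727). For DNP against Ctrl it passed without Ctrl replicate 3 (adjusted p 0.0406). Psmd4, a ubiquitin receptor, and Psmd13, of the lid, were higher in PF than in DNP as deposited (0.10 and 0.10) but at 0.0016 and -0.0013 with equal sums. The Psmd4 call was lost without DNP replicate 1, 2 or 3 or PF replicate 1 or 2 (adjusted p 0.0797 to 0.122) and the Psmd13 call without DNP replicate 1 or 2 or PF replicate 1 or 2 (adjusted p 0.109 to 0.164). Psmd14, the deubiquitinase of the lid, was called in no comparison as deposited, and by median ratios in PF against DNP. Psmd7 and Psmd11, both of the lid, were higher in PF than in Ctrl (0.14 and 0.16), though not with equal sums.

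The cap assembly chaperones differed among themselves. Psmd5 stood at 52.6, 54.4 and 56.5 FPKM in Ctrl, 61.3, 61.1 and 62.5 in DNP and 40.5, 44.1 and 46.8 in PF. DNP was highest, Ctrl between and PF lowest, with no overlap. It rose in DNP against Ctrl (log2 fold change 0.18 ± 0.04 (SE), limma adjusted p 0.00944), then was lower in PF than in DNP (log2 fold change -0.49 ± 0.05 (SE), limma adjusted p 8.55e-05) and than in Ctrl (log2 fold change -0.31 ± 0.06 (SE), limma adjusted p 0.00184), each under 3 scalings and with any 1 library left out. Psmd9 stood at 43.8, 45.1 and 45.2 FPKM in Ctrl, 39.3, 41.9 and 44.8 in DNP and 54.04, 55.5 and 57.3 in PF. PF lay above both other groups, which overlapped. It rose in PF against DNP (log2 fold change 0.40 ± 0.05 (SE), limma adjusted p 2.53e-04) and in PF against Ctrl (log2 fold change 0.31 ± 0.04 (SE), limma adjusted p 2.49e-04) under 3 scalings, and had -0.09 with adjusted p 0.210 in DNP against Ctrl. Psmd10 stood at 8.10, 7.65 and 8.76 FPKM in Ctrl, 9.90, 11.7 and 10.6 in DNP and 12.2, 11.1 and 6.83 in PF. DNP lay above Ctrl, and PF replicate 3 lay below both while the other PF samples were in the range of DNP or above. Psmd10 rose in DNP against Ctrl (log2 fold change 0.35 ± 0.08 (SE), limma adjusted p 0.00963) under 3 scalings. In PF against DNP it had -0.12 with adjusted p 0.583, a value that ran from -0.27 without PF replicate 1 to 0.11 without PF replicate 3. For PF against Ctrl it had 0.23 with adjusted p 0.272, passing there without PF replicate 3 (adjusted p 0.00205).

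The 4 Psmg genes encode chaperones that pair up to build the alpha ring. Psmg2 stood at 18.1, 16.9 and 18.7 FPKM in Ctrl, 24.1, 24.6 and 22.97 in DNP and 24.2, 23.1 and 23.9 in PF. DNP and PF overlapped and lay above Ctrl. Psmg3 stood at 8.61, 9.30 and 11.2 FPKM in Ctrl, 12.3, 13.98 and 14.3 in DNP and 12.6, 13.3 and 12.8 in PF. Its pattern was the same. From Ctrl to DNP, Psmg2 rose by 0.40 ± 0.05 (SE) (limma adjusted p 0.00118) and Psmg3 by 0.45 ± 0.09 (SE) (adjusted p 0.00942), the highest value among the 49 genes in that comparison. From Ctrl to PF, the values were 0.39 with adjusted p 3.20e-04 and 0.39 with adjusted p 0.00486. These calls held under 3 scalings. Psmg1, the partner of Psmg2, had 0.06 with adjusted p 0.289 in DNP against Ctrl. In PF against Ctrl Psmg1 had 0.13 with adjusted p 0.0233, a call absent with equal sums and lost without Ctrl replicate 1 or 2 or PF replicate 2 or 3 (adjusted p 0.0581 to 0.0716). Psmg4, the partner of Psmg3, was called in no comparison, with -0.02, 0.14 and 0.12 in DNP against Ctrl, PF against DNP and PF against Ctrl. For PF against DNP, none of the 4 was called by limma as deposited, and 0 had an unadjusted p under 0.05. By median ratios 1 was higher, beside 26.7% of all genes. Their values were 0.06 for Psmg1, -0.0087 for Psmg2 and -0.06 for Psmg3.

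**Figure D3:**
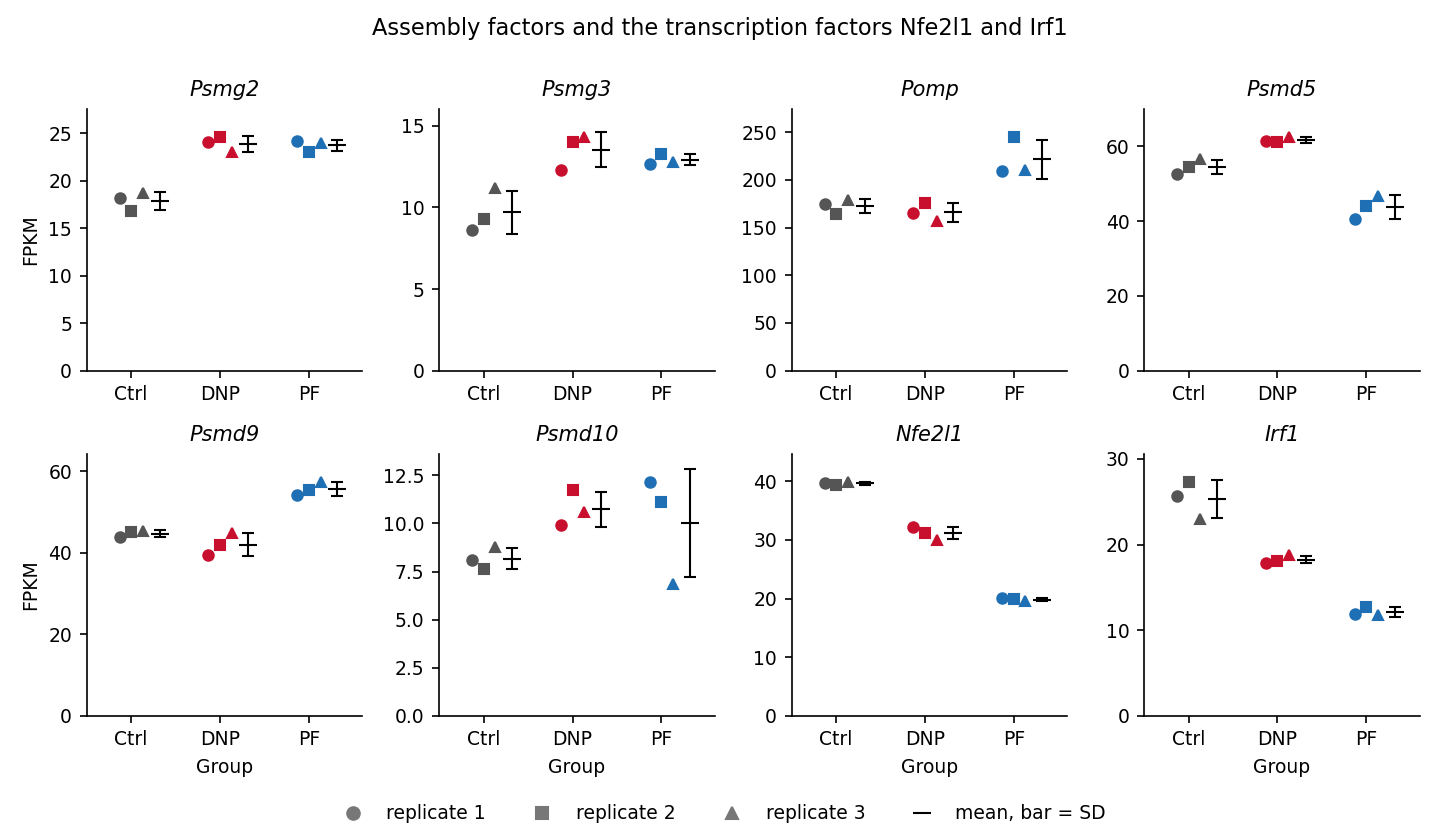
FPKM of assembly factors and of the transcription factors Nfe2l1 and Irf1 in the 3 samples of each group (points) with mean and SD. Nfe2l1 lies at 39.4 to 39.9 in Ctrl and 19.6 to 20.0 in PF, and PF replicate 3 of Psmd10 lies at 6.83, apart from the other PF samples.

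Among the activators, Psme1 and Psme2 together form PA28 alpha-beta, which opens the core of the immunoproteasome in particular. Psme1 stood at 65.02, 66.7 and 67.1 FPKM in Ctrl, 64.3, 66.6 and 65.1 in DNP and 78.1, 77.6 and 72.97 in PF. Psme2 stood at 42.9, 44.6 and 45.6 FPKM in Ctrl, 43.3, 40.7 and 43.1 in DNP and 49.6, 50.5 and 47.9 in PF. For both, each PF sample lay above each sample of the other groups, which overlapped. From DNP to PF, Psme1 rose by 0.22 ± 0.04 (SE) (limma adjusted p 0.00138) and Psme2 by 0.21 ± 0.04 (SE) (adjusted p 0.00211), both under 3 scalings. For PF against Ctrl Psme1 rose by 0.20 ± 0.04 (SE) (adjusted p 0.00306) under 3 scalings and Psme2 by 0.15 ± 0.04 (SE) (adjusted p 0.0137), though not with equal sums. Psme3, the nuclear activator PA28 gamma, stood at 93.8, 96.7 and 101 FPKM in Ctrl, 92.2, 96.1 and 98.8 in DNP and 90.5, 89.1 and 88.1 in PF. Each PF sample lay below each sample of the other groups. Psme3 was lower in PF than in DNP (log2 fold change -0.10 ± 0.04 (SE), limma adjusted p 0.0432) and than in Ctrl (log2 fold change -0.12 ± 0.04 (SE), limma adjusted p 0.0263), in both cases except by median ratios. The first call was lost without DNP replicate 2 or 3 or PF replicate 1, 2 or 3 (adjusted p 0.0668 to 0.146) and the second without Ctrl replicate 2 or 3 or PF replicate 1, 2 or 3 (adjusted p 0.0509 to 0.0903).

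Psme4, the activator PA200, stood at 44.1, 39.9 and 42.1 FPKM in Ctrl, 39.4, 39.7 and 38.2 in DNP and 37.8, 36.7 and 39.9 in PF. DNP lay below Ctrl, and PF overlapped both. Psme4 was lower in PF than in Ctrl (log2 fold change -0.14 ± 0.05 (SE), limma adjusted p 0.0482) except by median ratios, a call lost without Ctrl replicate 1 or 3 or PF replicate 1 or 2 (adjusted p 0.0946 to 0.151). It had -0.04 with adjusted p 0.506 in PF against DNP. In DNP against Ctrl, none of the 4 activators was called by limma, and 0 had an unadjusted p under 0.05. Their log2 fold changes there were -0.02 for Psme1, -0.06 for Psme2, -0.02 for Psme3 and -0.10 for Psme4. Psmf1, the inhibitor PI31, stood at 13.8, 14.6 and 14.4 FPKM in Ctrl, 16.7, 16.4 and 16.3 in DNP and 17.4, 18.6 and 18.1 in PF. The groups were ordered Ctrl, DNP, PF without overlap. Psmf1 rose in DNP against Ctrl (log2 fold change 0.20 ± 0.05 (SE), limma adjusted p 0.0134), a call lost without DNP replicate 1 (adjusted p 0.0506), and in PF against Ctrl (log2 fold change 0.32 ± 0.05 (SE), limma adjusted p 8.42e-04), both under 3 scalings. In PF against DNP it had 0.12 with adjusted p 0.0577 and passed by median ratios. Psmc3ip, no subunit, stood at 9.91, 10.9 and 12.7 FPKM in Ctrl, 12.1, 13.7 and 15.2 in DNP and 13.5, 15.7 and 13.5 in PF. PF lay above Ctrl, and DNP overlapped both. It was higher in PF than in Ctrl (log2 fold change 0.33 ± 0.09 (SE), limma adjusted p 0.0162) under 3 scalings, a call lost without Ctrl replicate 1 or PF replicate 2 (adjusted p 0.0524 to 0.0561). For DNP against Ctrl it had 0.27 with adjusted p 0.0826 and passed without Ctrl replicate 3 or DNP replicate 1 (adjusted p 0.0266 to 0.0483), and in PF against DNP it had 0.06 with adjusted p 0.609.

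Other genes of the pathway were read from a list of 39 symbols, which held older and newer symbols of some genes. Of these 33 had values, and without Tbp, a reference gene, 31 of 32 were tested. From Ctrl to DNP, 4 were higher and 4 lower, beside 14.7% and 14.4% of all genes, and with equal sums 7 were higher and 3 lower, beside 16.0% and 12.3%. For PF against DNP, 15 were higher and 6 lower, beside 18.1% and 30.7% of all genes. With equal sums the counts there were 4 and 10, beside 8.42% and 41.7%, and by median ratios 17 and 5, beside 26.7% and 25.2%. From Ctrl to PF, 13 were higher and 8 lower, beside 23.1% and 34.6% of all genes. Equal sums gave 9 and 9 there, beside 15.2% and 41.7%, and median ratios 16 and 5, beside 30.4% and 29.1%. Nfe2l1, a transcription factor that drives proteasome genes when proteasome activity falls short, stood at 39.7, 39.4 and 39.9 FPKM in Ctrl, 32.2, 31.3 and 30.1 in DNP and 20.02, 19.9 and 19.6 in PF. The groups were far apart, with Ctrl highest and PF lowest. It fell in DNP against Ctrl (log2 fold change -0.34 ± 0.04 (SE), limma adjusted p 6.70e-04), in PF against DNP (log2 fold change -0.63 ± 0.04 (SE), limma adjusted p 5.87e-06) and in PF against Ctrl (log2 fold change -0.96 ± 0.04 (SE), limma adjusted p 1.04e-06), each under 3 scalings. Pomp, the chaperone that places beta subunits, stood at 174, 164 and 179 FPKM in Ctrl, 165, 176 and 157 in DNP and 209, 245 and 210.4 in PF. PF lay above both other groups, which overlapped. It rose in PF against DNP (log2 fold change 0.41 ± 0.07 (SE), limma adjusted p 8.64e-04) and in PF against Ctrl (log2 fold change 0.36 ± 0.06 (SE), limma adjusted p 0.00160) under 3 scalings, and had -0.06 with adjusted p 0.428 in DNP against Ctrl.

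Sem1, a small lid subunit, stood at 120.3, 118 and 120.1 FPKM in Ctrl, 129, 121 and 125 in DNP and 155, 159 and 150.4 in PF. PF lay above DNP and DNP above Ctrl. It rose in PF against DNP (log2 fold change 0.30 ± 0.04 (SE), limma adjusted p 1.70e-04) and in PF against Ctrl (log2 fold change 0.37 ± 0.04 (SE), limma adjusted p 5.05e-05) under 3 scalings. Adrm1, a ubiquitin receptor of the cap, stood at 162, 170.4 and 164 FPKM in Ctrl, 155, 154 and 154 in DNP and 171, 176 and 160.1 in PF. DNP lay below Ctrl and PF, which overlapped. It fell in DNP against Ctrl (log2 fold change -0.10 ± 0.03 (SE), limma adjusted p 0.0389) except with equal sums, a call lost without Ctrl replicate 2 or 3 or DNP replicate 1, 2 or 3 (adjusted p 0.0615 to 0.111). It rose in PF against DNP (log2 fold change 0.13 ± 0.04 (SE), limma adjusted p 0.0210) except with equal sums, a call lost without DNP replicate 2 or 3 or PF replicate 1 or 2 (adjusted p 0.0565 to 0.0676), and had 0.03 with adjusted p 0.610 in PF against Ctrl. Zfand2a, a proteasome-binding zinc finger protein induced by protein stress, stood at 46.1, 49.02 and 43.96 FPKM in Ctrl, 86.1, 86.8 and 89.4 in DNP and 49.96, 55.8 and 59.5 in PF. DNP was highest and PF lay above Ctrl, without overlap. It rose in DNP against Ctrl (log2 fold change 0.90 ± 0.04 (SE), limma adjusted p 7.81e-06) and fell in PF against DNP (log2 fold change -0.66 ± 0.06 (SE), limma adjusted p 2.96e-05) under 3 scalings.

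Zfand5, a related activator of the proteasome, stood at 43.6, 43.95 and 43.5 FPKM in Ctrl, 44.5, 41.8 and 45.3 in DNP and 28.1, 29.7 and 31.0 in PF. PF lay below both other groups, which overlapped. It fell in PF against DNP (log2 fold change -0.55 ± 0.05 (SE), limma adjusted p 2.97e-05) and in PF against Ctrl (log2 fold change -0.55 ± 0.05 (SE), limma adjusted p 2.37e-05) under 3 scalings. Ubqln1, a shuttle for ubiquitinated proteins, stood at 45.4, 44.03 and 47.95 FPKM in Ctrl, 62.5, 65.8 and 62.8 in DNP and 75.5, 70.6 and 77.6 in PF. The order was Ctrl, DNP, PF without overlap. It rose in DNP against Ctrl (log2 fold change 0.47 ± 0.04 (SE), limma adjusted p 2.33e-04) and in PF against Ctrl (log2 fold change 0.69 ± 0.05 (SE), limma adjusted p 1.09e-05) under 3 scalings. Nploc4, a cofactor of the unfoldase Vcp, was lower in PF than in Ctrl (log2 fold change -0.37 ± 0.06 (SE), limma adjusted p 9.36e-04). In DNP against Ctrl the ubiquitin ligase Ube3c, which acts at the proteasome, was higher (log2 fold change 0.20 ± 0.04 (SE), limma adjusted p 0.0114), and Syvn1, a ligase of the endoplasmic reticulum, was lower (log2 fold change -0.18 ± 0.04 (SE), limma adjusted p 0.0145). These 3 calls held under 3 scalings.

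Of 23 genes of antigen presentation and interferon response, 21 had values and 18 were tested. For DNP against Ctrl, 2 were higher and 7 lower, beside 14.7% and 14.4% of all genes, and with equal sums 2 and 6, beside 16.0% and 12.3%. From DNP to PF, 2 were higher and 10 lower, beside 18.1% and 30.7%. With equal sums 10 were lower and both higher calls were lost, beside 41.7% and 8.42% of all genes, and by median ratios 5 were higher and 9 lower, beside 26.7% and 25.2%. In PF against Ctrl, 2 were higher and 10 lower, beside 23.1% and 34.6%. With equal sums 11 were lower there and both higher calls were lost, beside 41.7% and 15.2%, and by median ratios 3 were higher and 10 lower, beside 30.4% and 29.1%. Irf1, an interferon-induced factor that drives the immunoproteasome genes, stood at 25.7, 27.3 and 23.0 FPKM in Ctrl, 17.9, 18.1 and 18.7 in DNP and 11.9, 12.8 and 11.7 in PF. The groups were ordered Ctrl, DNP, PF from high to low without overlap. It fell in DNP against Ctrl (log2 fold change -0.45 ± 0.06 (SE), limma adjusted p 0.00157), in PF against DNP (log2 fold change -0.55 ± 0.05 (SE), limma adjusted p 3.79e-05) and in PF against Ctrl (log2 fold change -1.003 ± 0.07 (SE), limma adjusted p 8.52e-06), each under 3 scalings. Tap1, a chain of the peptide transporter, stood at 59.5, 64.6 and 57.7 FPKM in Ctrl, 55.9, 52.97 and 52.1 in DNP and 50.2, 47.9 and 49.6 in PF. The order was Ctrl, DNP, PF from high to low without overlap.

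Tap1 fell in DNP against Ctrl (log2 fold change -0.17 ± 0.05 (SE), limma adjusted p 0.0319) under 3 scalings, a call lost without Ctrl replicate 1 or 2 or DNP replicate 2 or 3 (adjusted p 0.0522 to 0.1004). In PF against DNP it fell (log2 fold change -0.12 ± 0.04 (SE), limma adjusted p 0.0314) except by median ratios, a call lost without DNP replicate 1 or 2 or PF replicate 2 (adjusted p 0.0610 to 0.119). For PF against Ctrl it fell under 3 scalings (log2 fold change -0.29 ± 0.05 (SE), limma adjusted p 0.00110). Tap2, the other chain, stood at 33.6, 36.6 and 35.97 FPKM in Ctrl, 33.9, 35.3 and 31.2 in DNP and 36.2, 36.9 and 33.4 in PF. The groups overlapped, and it was called in no comparison (-0.08, 0.08 and 0.0032 in DNP against Ctrl, PF against DNP and PF against Ctrl). Socs1, an inhibitor of interferon signalling, stood at 17.9, 18.03 and 16.7 FPKM in Ctrl, 17.3, 16.1 and 19.9 in DNP and 4.86, 6.87 and 4.41 in PF. PF lay far below both other groups, which overlapped. It fell in PF against DNP (log2 fold change -1.57 ± 0.13 (SE), limma adjusted p 2.45e-05) and in PF against Ctrl (log2 fold change -1.56 ± 0.13 (SE), limma adjusted p 1.99e-05) under 3 scalings. Irf9, a transcription factor of the interferon response, was lowest of the list in DNP against Ctrl (log2 fold change -0.54 ± 0.08 (SE), limma adjusted p 0.00169) and Usp18, which trims Isg15, was highest (log2 fold change 0.35 ± 0.08 (SE), limma adjusted p 0.0115), both under 3 scalings. Pdia3, a chaperone of peptide loading, was highest in PF against DNP (log2 fold change 0.11 ± 0.03 (SE), limma adjusted p 0.0235), not with equal sums, a call lost without DNP replicate 2 or 3 or PF replicate 1 or 2 (adjusted p 0.0550 to 0.0842). Tapbp, which bridges transporter and class I molecules, was highest in PF against Ctrl (log2 fold change 0.18 ± 0.04 (SE), limma adjusted p 0.00671), not with equal sums.

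Promoter windows of 250 bases before to 50 after the gene start, from RefSeq on build GRCr8, were matched for 44 of the 49 genes, with no entry for Psma7, Psmb11, Psmd6, Psmd12 and Psmd14. They were searched on both strands for TGACNNNGC, the antioxidant response element core to which NFE2L1 and NFE2L2 bind, and for the CCAAT box. A further pattern was TGANTCA, in which N was any base, so that it is looser than the AP-1 motif it includes. TGACNNNGC occurred in 8 of 44 proteasome windows (18.2%) and in 4038 of all 33469 windows (12.1%). CCAAT occurred in 22 of 44 (50.0%) and in 37.5% of all windows. TGANTCA occurred in 1 of 44 (2.27%, Psmc6) and in 7.33% of all windows. All windows outnumber the 18006 genes with values and were not limited to genes expressed here, so these shares come from unlike sets. The 8 genes with TGACNNNGC were Psma3, Psmb2, Psmb5, Psmb6, Psmd1, Psmd3, Psmd9 and Psme4. From Ctrl to DNP, none of the 8 was called by limma, beside 14.7% of all genes higher and 14.4% lower. The median log2 fold change of the 8 was 0.01, and 2 had an unadjusted p under 0.05, a cut-off without a background here. For PF against DNP, 6 were higher as deposited and the other 2 were not called (median 0.18), of which 3 (Psmb5, Psmd3 and Psmd9) held under 3 scalings. Among the 49 proteasome genes 24 were higher in that comparison and 12 under 3 scalings, and among all genes 18.1% and 8.41%. From Ctrl to PF, 6 were higher and 1 lower (median 0.18), of which Psmd1, Psmd3 and Psmd9 held under 3 scalings, beside 29 higher and 3 lower of the 49 proteasome genes and 23.1% and 34.6% of all genes. Under 3 scalings 16 of the 49 and 15.2% of all genes were higher there. A match describes letters only. The stretches are shown because these windows belong to genes that range from Psme4, lower in PF than in Ctrl except by median ratios, to Psmd9 and Psmd3, higher in PF than in both other groups under 3 scalings. Each runs 5′ to 3′ on the strand given, with the 9 motif letters in capitals and 10 bases on each side, and none of the 10 matches overlaps TGANTCA.
Psma3 chr6:95219727-95219755 (-): ctcatggtgcTGACCCGGCaggccacaga
Psmb2 chr5:144254980-144255008 (+): cccgcgccaaTGACCGGGCggtcgcatat
Psmb5 chr15:32047421-32047449 (-): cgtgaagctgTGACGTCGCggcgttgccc
Psmb6 chr10:55737854-55737882 (+): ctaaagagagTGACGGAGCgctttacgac
Psmd1 chr9:94157796-94157824 (+): accagatctaTGACCTCGCgagaattata
Psmd1 chr9:94157983-94158011 (+): gtgaggggacTGACTGAGCagcgcacccg
Psmd3 chr10:84139941-84139969 (-): ggccgcacgaTGACCGAGCagctgcaaac
Psmd9 chr12:39018370-39018398 (+): ggttttcagaTGACCCGGCagagctaagt
Psmd9 chr12:39018323-39018351 (-): gagtttccggTGACCTCGCcccacctcca
Psme4 chr14:108706578-108706606 (-): ggcgaggaggTGACCCAGCggctttctcc

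Psmb9 and Tap1 lie head to head on chromosome 20, and their starts are 457 bases apart. Their windows, chr20:4668750-4669049 on the plus strand for Psmb9 and chr20:4668494-4668793 on the minus strand for Tap1, share 44 bases. The sequence is shown because these neighbours had different values in PF against DNP: Psmb9 was higher as deposited (0.21, not called with equal sums) and Tap1 lower (-0.12, not called by median ratios). The window of Psmb9 is given with the shared bases in capitals.
Psmb9 chr20:4668750-4669049 (+): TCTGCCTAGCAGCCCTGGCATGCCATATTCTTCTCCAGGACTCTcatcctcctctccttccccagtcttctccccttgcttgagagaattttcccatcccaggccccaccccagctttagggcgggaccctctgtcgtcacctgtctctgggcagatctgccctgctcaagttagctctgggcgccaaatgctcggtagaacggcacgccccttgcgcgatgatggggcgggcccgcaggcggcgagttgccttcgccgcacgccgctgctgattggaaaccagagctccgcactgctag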

How the data were processed

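The authors deposited FPKM values per gene, which by the submitters' processing notes came from reads cleaned with SOAPnuke, aligned with HISAT2 2.0.4 and Bowtie2 2.2.5 on rat build rn6 and quantified with RSEM 1.2.12. Of 38490 genes listed per sample, 20484 carried no value. The test planned for counts could not be used, so groups were compared in pairs with limma 3.58.1 in R 4.3.3 (lmFit and trended eBayes) on log2(FPKM + 1), two-sided, where 3 or more of the 6 samples reached 1 FPKM, with Benjamini-Hochberg adjustment over all genes tested and a threshold of 0.05. Scalings tried were median ratios over genes above 0 in every sample and equal FPKM sums. The pipeline was tested on simulated data. Genes were named by a rule: the catalytic and immunoproteasome genes, Psme, Psmf and Psmg genes, the 5 highest and 5 lowest fold changes, the extremes of each class, and of the lists the main regulators and the extremes. The members, the pathway, antigen presentation and marker lists and the motifs were chosen with earlier results of these data known. Some genes of the lists are counted but not reported here by name.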

Additional observations from a re-analysis of the deposited data

How the results depend on the processing

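Alternatives were a pseudocount of 0.1, no filter, a fit of all 3 groups, limma without trend, an adjusted p of at most 0.01, the scalings, each library left out, PF replicate 1 alone and, for ratios, no pseudocount (chosen after seeing the data); only FPKM were analysed here, so the planned DESeq2 and edgeR size factors were not run. At an adjusted p of at most 0.01, DNP against Ctrl held 5 higher and 1 lower proteasome genes, and 1 was lower in PF against DNP and in PF against Ctrl, a stricter threshold by construction. No share of all genes is given at 0.01, so these counts cannot be set against a background. Scaled to equal sums, PF against DNP held 12 higher genes with a median log2 fold change of -0.0011, and PF against Ctrl 16 higher and 5 lower with a median of 0.069. With this scaling 8.42% of all genes were higher in the first comparison, and 15.2% were higher and 41.7% lower in the second. There Psma2 in PF against DNP turned to -0.094, Psma5 to -0.0011, Psmb4 to -0.0066 and Psmd13 to -0.0013. By median ratios, 1 gene was lower in PF against DNP (median 0.16) and 1 in PF against Ctrl (median 0.21). Lower genes made up 25.2% and 29.1% of all genes there. In PF against DNP 2 genes were lower without a filter, with all 3 groups in the fit and without trend. Beside these, 18.0%, 31.0% and 30.5% of all genes were lower. Without trend 1 was lower in PF against Ctrl, beside 34.5% of all genes. The cause of these changes was not tested. With PF replicate 1 alone, a smaller design, PF against DNP held 14 higher and 2 lower genes (11.5% and 24.0% of all genes) and PF against Ctrl 15 and 1 (13.4% and 26.1%). With 1 library left out, lower genes numbered 1 to 4 in PF against DNP and 1 to 3 in PF against Ctrl. Their shares among all genes were 25.8% to 29.9% and 30.7% to 33.3%. With replicate number as a replicate block, counts were 9 and 2 in DNP against Ctrl (13.2% and 12.8% of all genes), 19 and 3 in PF against DNP (16.5% and 28.8%) and 29 and 3 in PF against Ctrl (23.5% and 34.5%). Deviations from the group means of samples with the same number correlated across genes at -0.062, 0.044 and -0.050 for replicates 1, 2 and 3 in DNP against Ctrl, at 0.010, -0.073 and -0.016 in PF against DNP and at 0.086, 0.18 and 0.079 in PF against Ctrl, so the paired fit rests on a shared number only. For single genes, the alternatives other than leaving out 1 library gave 1440 values on the same side of the threshold, 143 no longer past it, 33 newly past it and the 4 changes of sign above, each called before or after. Leaving out 1 library gave 1008, 101 and 13 and no change of sign of that kind. In all, 74 values of genes called neither before nor after changed sign. The exact test of the 3 ratios cannot pass 0.05 with 3 samples a group, so its alternatives say nothing about stability. Without counts, the limit that depth sets cannot be given.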
